A study of Mus musculus with 6 samples.

Results

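The genes of the epidermal differentiation complex were examined in the cornea of mice with experimental dry eye. The complex is a cluster of genes for calcium-binding S100A proteins, small proline-rich proteins, late cornified envelope proteins, filaggrin-like proteins, loricrin, involucrin and peptidoglycan recognition proteins. Members were taken by gene symbol: every numbered S100a, Sprr, Lce, Flg, Tchh and Pglyrp gene except S100a10, together with Lor, Ivl, Rptn, Hrnr, Crnn and Crct1. The rule found 42 of the 17794 genes in the table. Of these, 40 lie on mouse chromosome 3, Pglyrp1 lies on chromosome 7 and Pglyrp2 on chromosome 17, so the last 2 share the family name but not the locus. Hrnr, Flg2 and the Lce1 genes were not analysed here.

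Both groups had dry eye induced with benzalkonium chloride (BAC), a detergent preservative that harms the ocular surface. One group then received vehicle and the other luteolin, a plant flavone, for 10 days, with 3 libraries of each. The labels give no genotype, strain, sex or age, and no library from an eye without BAC was analysed here. They call the cell type multiple, name whole corneas as the material, and give no animal for any library. Replicates may therefore be technical, and each p-value reflects the spread among these 6 samples alone.

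When a stratified epithelium cornifies, its outer cells replace the plasma membrane with a sheet of cross-linked protein, the cornified envelope, in which involucrin and loricrin are joined with small proline-rich (SPRR) and late cornified envelope (LCE) proteins by transglutaminases. The healthy corneal epithelium is stratified but does not cornify, and SPRR genes are known as markers of squamous change at the ocular surface. S100A proteins bind calcium in many cell types, and S100A8 and S100A9, which pair as calprotectin, are abundant in neutrophils and are also made by stressed keratinocytes.

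Library totals lay between 16084855 and 16469699 estimated counts. With luteolin, 4208 of 13838 tested genes were lower and 3949 higher (edgeR quasi-likelihood test, Benjamini-Hochberg adjusted p under 0.05). The corneal epithelium is well represented in both groups: the summed level of 10 epithelial markers was 53558 to 61361 CPM (counts scaled to a common library total with edgeR's TMM factors) with vehicle and 80986 to 83617 CPM with luteolin, and 8 of the 10 were higher, among them Krt12 and Aldh3a1, with 1 lower, the basal keratin Krt14, which went from 5209 ± 1753 CPM (SD, n = 3) to 418 ± 81.2 CPM (SD, n = 3), 12.5-fold lower (edgeR adjusted p = 0.000114). Keratins listed as conjunctival markers were also present, although the labels name only cornea. Krt13 was at 2321 to 2649 CPM with vehicle and 1181 to 1711 CPM with luteolin, and Krt4 at 1345 to 1474 CPM and 408 to 779 CPM. The listed gene Agr2 was at 3.57 to 6.61 CPM and 3.03 to 5.85 CPM, and Spdef had 1 to 4 counts per library. In bulk tissue, fewer cells of a type and less RNA per cell cannot be told apart.

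Of the 42 members, 21 passed the filter on low counts and 21 did not, and 16 of those had at most 10 counts over all 6 libraries. Among the 21 tested, 12 (57.1%) were lower with luteolin, 2 (9.52%) were higher and 7 did not pass; over all tested genes 30.4% were lower and 28.5% higher. A decrease of more than 1 on the log2 scale was found for 8 members, against 15.1% of all genes, and one of more than 3 for 6 members, against 3.16% of all genes. Both members that rose did so by more than 1, as did 4.61% of all genes. The median log2 fold change of the tested members was -0.87, and that of all tested genes was -0.02. The groups did not overlap for 15 of the 21 members (71.4%), near the 67.4% of all genes. S100a8 and Sprr1b passed the filter only through their vehicle libraries and Lce3a only through its luteolin libraries, so these 3 had to differ in order to be tested.

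**Figure D1:**
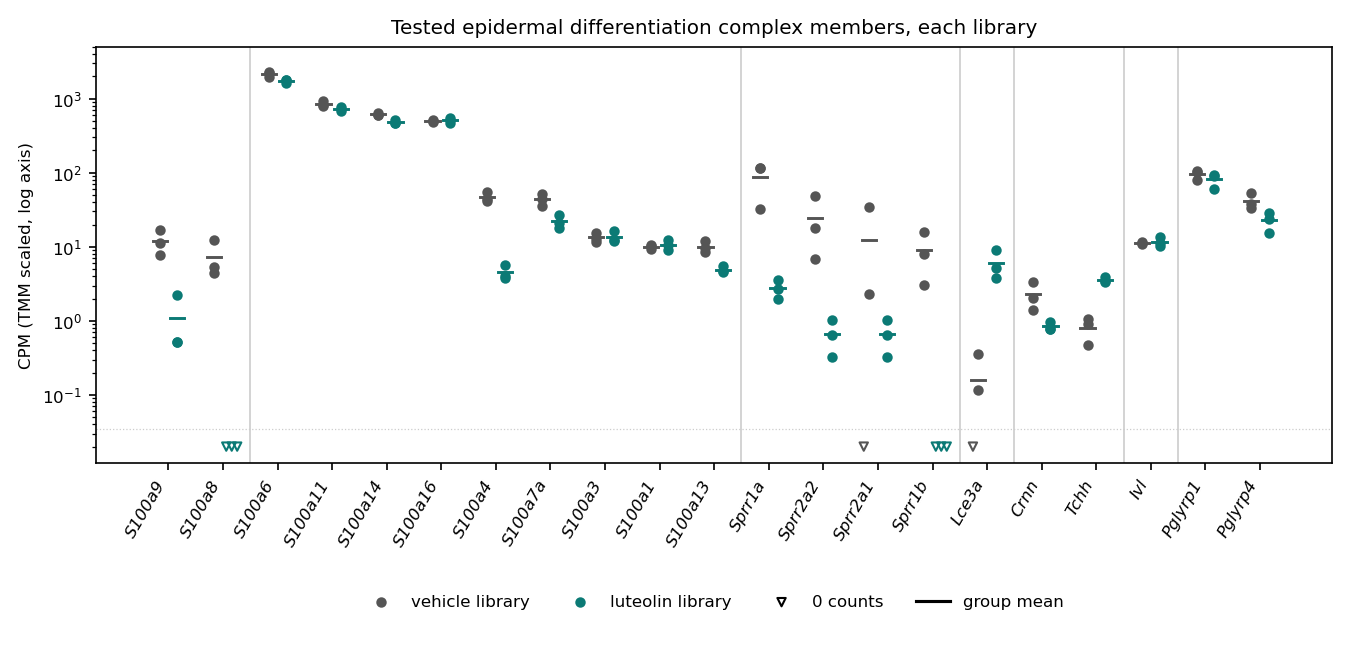
Level of each tested member in each library, as TMM-scaled CPM on a log10 axis, with 3 vehicle and 3 luteolin points per gene and a line at the group mean; open triangles below the dotted line are libraries with 0 counts. S100a6, S100a11, S100a14 and S100a16 lie close together in all 6 libraries. The SPRR and calgranulin points of the groups are far apart, except for Sprr2a1, whose groups overlap.

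The calgranulins were nearly absent after luteolin. S100a8 (gene ID 20201) had 5.37, 4.39 and 12.4 CPM in the vehicle libraries and 0 counts in every luteolin library. Every vehicle library thus held S100a8 reads (92, 75 and 208 counts) and no luteolin library did. Set against a floor of 3 counts over the luteolin group, S100a8 was at least 114-fold lower (edgeR adjusted p = 0.00101); this bound was 75.6-fold without vehicle 3 and 75.7- to 76.1-fold without any 1 luteolin library. Its partner S100a9 (gene ID 20202) had 11.1, 7.84 and 17 CPM with vehicle and 0.516, 0.520 and 2.25 CPM with luteolin. Luteolin 3 was the highest of its group and still below every vehicle library, and the log2 fold change was -3.44 (SE 0.564, 10.8-fold lower, edgeR adjusted p = 0.00178), or 22.8-fold lower without luteolin 3. Neutrophil markers moved with these genes: of 13 listed, 11 were in the table and 5 could be tested, and all 5 were lower. Of these, Csf3r, Cxcr2, Mmp8 and Trem1 passed the filter only through their vehicle libraries, so 4 of the 5 had to be lower in order to be tested. The summed level of the 11 was 63.7, 49.9 and 104 CPM with vehicle and 5.74, 7.99 and 11.9 CPM with luteolin. Csf3r, the receptor for granulocyte colony-stimulating factor, was at 17.9, 16.2 and 14.2 CPM with vehicle and at 0.0643 to 0.580 CPM with luteolin. Ltf encodes lactoferrin and is also made by secretory epithelia. It was at 33.5, 25.6 and 73.5 CPM with vehicle and 4.84, 7.28 and 11.6 CPM with luteolin, the largest part of the sum in every library. Within the vehicle group, Csf3r, Cxcr2 and Mmp8 were highest in vehicle 1, and Ltf and Trem1 in vehicle 3. Mmp8 had 39, 13 and 27 counts with vehicle and Trem1 33, 38 and 121, and both had 0 in every luteolin library. The defining marker Ly6g was close to 0 in both groups, with 1 count in each vehicle library and 0 with luteolin. Camp, Ngp and Cd177 had 0 to 5 counts per vehicle library and 0 or 1 with luteolin, too few to show a difference. Retnlg and Stfa2l1 were not tested either. Retnlg had 5, 5 and 10 counts with vehicle and 0 with luteolin, at least 6.07-fold lower against the floor of 3 counts. Stfa2l1 had 15, 5 and 22 counts with vehicle and 1, 0 and 2 with luteolin, a ratio of 12.8 (exact interval 4.07 to 64.3). Both values cover counting error only. The part of neutrophils in the calgranulin result was not tested.

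The other 11 S100A genes included the most abundant members. Of 9 tested, 5 were lower, 0 were higher and 4 did not pass, against 30.4% lower and 28.5% higher of all tested genes. S100a4 (gene ID 20198), a gene of motile cells that is expressed in fibroblasts and leukocytes, changed most. Its levels were 43.8, 55.1 and 41.8 CPM with vehicle and 4.06, 3.77 and 5.73 CPM with luteolin. Means were 46.9 ± 7.18 CPM (SD, n = 3) and 4.52 ± 1.06 CPM (SD, n = 3), and the log2 fold change was -3.37 (SE 0.183, 10.4-fold lower, edgeR adjusted p = 4.15e-05). Of 12 tested markers of macrophages and dendritic cells 11 were lower, and their summed level was 454, 800 and 393 CPM with vehicle and 55.4, 77.1 and 47.9 CPM with luteolin; Lyz2, a lysozyme gene of myeloid cells, went from 190 to 435 CPM down to 10.2 to 26.8 CPM, and C1qb, a complement subunit made by macrophages, from 36.4 to 69.4 CPM down to 4.64 to 7.41 CPM. Keratocyte markers overlapped between the groups, at 2347 to 6837 CPM in sum with vehicle and 1745 to 3561 CPM with luteolin, with 1 lower and 1 higher of 8. Whether leukocytes account for S100a4 was not tested.

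S100a13 (gene ID 20196), which takes part in the release of proteins without a signal peptide, had 8.41, 11.9 and 9.59 CPM with vehicle and 4.71, 5.52 and 4.50 CPM with luteolin (log2 fold change -1.02, SE 0.180, edgeR adjusted p = 0.00245). Its RefSeq gene model overlaps that of S100a1 on the opposite strand by 98 bases, and the use of strand in counting is not given in the sources used here. S100a7a (gene ID 381493), the mouse relative of the psoriasin genes, had 35.6, 44.1 and 52.2 CPM with vehicle and 18.1, 20.9 and 27.2 CPM with luteolin (log2 fold change -0.99, SE 0.185, edgeR adjusted p = 0.0031). The groups were fully separated for both genes. Changes in the abundant epithelial members were small. S100a14 (gene ID 66166) had 601, 600.3 and 648 CPM with vehicle and 475, 518 and 466 CPM with luteolin, or -0.34 as log2 fold change (SE 0.0681, edgeR adjusted p = 0.00424). S100a6 (gene ID 20200), also called calcyclin, had 1943, 2267 and 2212 CPM with vehicle and 1610.1, 1770.2 and 1818 CPM with luteolin, or -0.30 as log2 fold change (SE 0.0840, edgeR adjusted p = 0.0166). The groups did not overlap in either gene, and the decreases were 1.27-fold for S100a14 and 1.24-fold for S100a6.

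Among the S100A genes that did not pass, S100a11 (gene ID 20195) had 832, 789 and 935 CPM with vehicle and 682, 770 and 734 CPM with luteolin. Its groups did not overlap, the log2 fold change was -0.23 (SE 0.0839) and the edgeR adjusted p was 0.0507. Other scalings and tests put it past the threshold, with log2 fold changes of -0.22 to -0.42. With 1 library left out it passed only without vehicle 2 (edgeR adjusted p = 0.0196), and over all alternatives the adjusted p reached from 0.00495 to 0.141. Its counts carried decimals in all 6 libraries, as when reads are divided between similar sequences. S100a16 (gene ID 67860) lay at 490 to 517 CPM with vehicle and 475 to 547 CPM with luteolin, with a log2 fold change of 0.04 and a 95% interval of -0.10 to 0.18. Intervals of log2 fold changes, here and below, use a normal distribution and are narrower than the edgeR test would give. For S100a3 (gene ID 20197) the ranges were 11.7 to 15.5 CPM and 12.2 to 16.1 CPM, with an interval of -0.31 to 0.33, and for S100a1 (gene ID 20193) they were 9.46 to 10.4 CPM and 8.96 to 12.3 CPM, with an interval of -0.21 to 0.37. The groups overlapped for these 3 genes, and the sign of each change depended on the scaling. S100a2, whose RefSeq model lies within that of S100a3, and S100a5 had 0 to 4 counts in each library and were not tested.

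Small proline-rich genes were much lower with luteolin. All 11 had fewer counts over the luteolin group than over the vehicle group, 6 had 0 counts in every luteolin library, and of the 4 that could be tested 3 were lower and 1 did not pass. Summed over the family, the level was 237, 45.4 and 150.4 CPM with vehicle and 3.42, 3.31 and 5.98 CPM with luteolin. Vehicle 2 was thus low for its group but stood above every luteolin library. Vehicle 2 also had the highest summed level of keratocyte markers in its group (6837 CPM, against 3420 and 2347) and of skeletal muscle markers (211 CPM, against 126 and 15.1). Conjunctival markers, from an epithelium that can express SPRR genes, were at 4083 to 4404 CPM in sum with vehicle and 1737 to 2688 CPM with luteolin, with 3 lower of 4 tested. The keratins Krt4, Krt13 and Krt19 were the 3 lower and made up nearly all of the sum, and Agr2 did not pass (edgeR adjusted p = 0.688). The part of keratocytes, muscle or conjunctiva in the SPRR result was not tested. The bases before the start of Sprr1a and Sprr1b are shown with those of Crnn and Ivl, members of the same locus with a smaller decrease and with a change that did not pass. Each run is the 250 bases upstream of the RefSeq start (build GRCm38.p6), 5′ to 3′ on the gene's strand, with the AP-1 site letters TGANTCA and the TATA box letters TATAAA in capitals.
Sprr1a (chr3:92485882-92486131, minus strand): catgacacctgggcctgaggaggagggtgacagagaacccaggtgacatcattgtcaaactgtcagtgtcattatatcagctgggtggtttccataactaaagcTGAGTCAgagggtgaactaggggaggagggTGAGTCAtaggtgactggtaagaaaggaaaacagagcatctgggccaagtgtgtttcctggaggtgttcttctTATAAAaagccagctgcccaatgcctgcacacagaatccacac
Sprr1b (chr3:92438780-92439029, minus strand): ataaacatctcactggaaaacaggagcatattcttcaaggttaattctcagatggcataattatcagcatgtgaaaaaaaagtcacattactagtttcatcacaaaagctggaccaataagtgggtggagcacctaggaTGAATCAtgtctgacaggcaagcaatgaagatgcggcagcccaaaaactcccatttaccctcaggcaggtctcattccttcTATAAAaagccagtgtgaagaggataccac
Crnn (chr3:93144539-93144788, plus strand): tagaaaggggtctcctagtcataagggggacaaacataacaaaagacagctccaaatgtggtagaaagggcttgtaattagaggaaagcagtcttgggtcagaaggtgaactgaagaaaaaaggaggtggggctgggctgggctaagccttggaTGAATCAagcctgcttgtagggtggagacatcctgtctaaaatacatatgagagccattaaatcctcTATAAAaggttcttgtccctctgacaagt
Ivl (chr3:92573736-92573985, minus strand): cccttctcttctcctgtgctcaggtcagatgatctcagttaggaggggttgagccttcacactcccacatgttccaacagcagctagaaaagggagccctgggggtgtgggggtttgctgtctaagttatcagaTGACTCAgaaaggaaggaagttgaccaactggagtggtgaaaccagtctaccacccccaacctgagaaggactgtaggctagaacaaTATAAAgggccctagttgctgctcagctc
Sprr1a has AP-1 letters 146 and 116 bases before the start, Sprr1b 111, Crnn 96 and Ivl 116, and each has TATAAA between 29 and 43 bases before the start. Ivl, which did not pass, and Sprr1a, Sprr1b and Crnn, which were lower, all carry both sets of letters. Sprr1a holds 2 AP-1 matches and each of the others 1. Whether these letters bear on the changes was not tested.

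Sprr1a (gene ID 20753), an envelope precursor that is induced in squamous epithelia, was the most abundant SPRR gene. It had 117, 32.4 and 117 CPM with vehicle and 2.71, 1.95 and 3.60 CPM with luteolin. The lowest vehicle library was 32.4 and the highest luteolin library 3.60 CPM; means were 88.5 ± 48.6 CPM (SD, n = 3) and 2.75 ± 0.828 CPM (SD, n = 3), and the log2 fold change was -5.00 (SE 0.577, 32-fold lower, edgeR adjusted p = 0.000404). Sprr1b (gene ID 20754), its close relative, had 15.9, 3.04 and 7.92 CPM with vehicle and 0 counts in every luteolin library. With 272, 52 and 133 vehicle counts, it was at least 139-fold lower (edgeR adjusted p = 0.00251), a bound that was 84.6-fold without vehicle 1 and 92.3- to 92.8-fold without any 1 luteolin library. Sprr3, the SPRR gene best known from esophagus and other wet squamous epithelia, was not tested; it had 223, 1 and 80 counts with vehicle and 0, 0 and 2 with luteolin. The ratio of counts scaled to library size was 138 (exact 95% interval 38.0 to 1148, for counting error only), and it rested on the vehicle libraries other than vehicle 2: it was 55.5 without vehicle 1 and 207 without vehicle 2. Without luteolin 3, where luteolin counts were 0, Sprr3 was at least 61.4-fold lower. Sprr2f, also not tested, had 14, 7 and 24 counts with vehicle and 0 with luteolin, at least 13.7-fold lower, with bounds of 9.09 to 17.3 when any 1 library was left out, the lowest of them without a luteolin library (9.09 to 9.14) or without vehicle 3 (9.50).

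Sprr2a1 and Sprr2a2 are near copies, Sprr2a3 shares part of its sequence with other genes, and their separate values are uncertain. In GENCODE M21 transcripts, 96.3% of the 50-base words of Sprr2a1 and 96.5% of those of Sprr2a2 also occur in another SPRR or LCE3 gene, as do 61.1% of those of Sprr2a3. The 250 bases upstream of Sprr2a1 and Sprr2a2 differ at 0 positions. Those of Sprr2a3 differ from either at 184 positions, compared base by base without alignment. Sprr2a2 (gene ID 100303744) had 49.0, 6.91 and 18.2 CPM with vehicle and 0.322, 0.650 and 1.03 CPM with luteolin (log2 fold change -5.19, SE 0.859, edgeR adjusted p = 0.00184), 36.6-fold lower, or 18.7-fold without vehicle 1. Sprr2a1 (gene ID 20755) had 34.3, 2.28 and 0 CPM with vehicle and the same luteolin values as Sprr2a2, and did not pass (log2 fold change -4.18, SE 1.68, edgeR adjusted p = 0.0647). It passed without vehicle 2 or vehicle 3 (edgeR adjusted p = 0.0360 and 0.0117), and its log2 fold change was -0.78 (edgeR adjusted p = 0.616) without vehicle 1; over all alternatives the adjusted p reached from 0.0117 to 0.616. Summing the 3 genes, a step chosen after seeing the data, gave 90.0, 9.48 and 18.9 CPM with vehicle and 0.709, 1.36 and 2.25 CPM with luteolin. All vehicle sums were above all luteolin sums, and the sum was 28.1-fold lower (log2 fold change -4.81, SE 0.995, edgeR adjusted p = 0.00494), or 10.2-fold lower without vehicle 1. The other 4 SPRR members, Sprr2d, Sprr2h, Sprr2i and Sprr2k, had 0 to 7 counts per vehicle library and 0 with luteolin.

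Among the late cornified envelope genes, Lce3a went the other way, from almost no reads, and only Lce3a could be tested. All 6 LCE genes had more counts over the luteolin group than over the vehicle group, and 4 had 0 counts in every vehicle library. For the 5 not tested the difference rested on few reads, such as 1 count against 0 for Lce6a. LCE proteins are late-added envelope components, and the LCE3 subgroup is known from skin for induction by barrier injury. Lce3a (gene ID 545548) had 0, 2 and 6 counts with vehicle and 59, 79 and 142 counts with luteolin, or 0, 0.117 and 0.357 CPM against 3.80, 5.13 and 9.14 CPM. Every luteolin library was above every vehicle library, and all vehicle libraries were near the limit of detection. Means were 0.158 ± 0.182 CPM (SD, n = 3) and 6.02 ± 2.78 CPM (SD, n = 3), and the log2 fold change was 5.19 (SE 0.691, 36.6-fold higher, edgeR adjusted p = 0.000718). Without vehicle 3 the vehicle group held 2 counts and the ratio was 103 (exact 95% interval 28.3 to 856). The remaining 5 LCE members were not tested: Lce3f had 0, 0 and 0 counts with vehicle and 2, 2 and 5 with luteolin, Lce3b 0, 0 and 1 against 0, 5 and 4, and Lce3c, Lce3e and Lce6a at most 4 counts in any library. Of the 50-base words of Lce3a, 19.0% occur in another SPRR or LCE3 gene, and for Lce3f the share is 48.0%, so reads of the low LCE3 genes may be shared. Summed over the family, vehicle libraries held 0, 2 and 7 counts and luteolin libraries 61, 89.0 and 157.

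**Figure D2:**
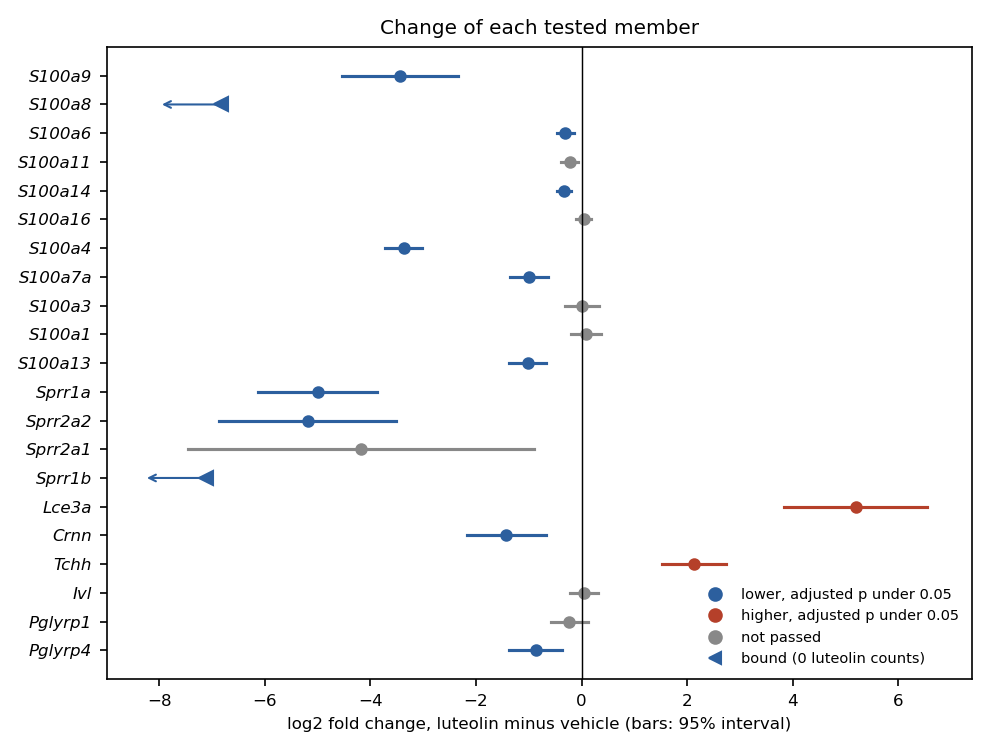
Log2 fold change (luteolin minus vehicle, horizontal axis) of each tested member, grouped by family, with bars of the 95% interval from the SE. The bars use a normal distribution, are narrower than the edgeR test would give and are not adjusted for the number of genes. Triangles with arrows mark members with 0 luteolin counts, drawn at their bound. SPRR genes and calgranulins lie at the lower end, the abundant S100A genes near 0, and of the 21 members Lce3a and Tchh are drawn in the colour for higher.

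The upstream bases of Lce3a are shown beside those of S100a8 and S100a4, which fell, in the same form and build.
S100a8 (chr3:90668821-90669070, plus strand): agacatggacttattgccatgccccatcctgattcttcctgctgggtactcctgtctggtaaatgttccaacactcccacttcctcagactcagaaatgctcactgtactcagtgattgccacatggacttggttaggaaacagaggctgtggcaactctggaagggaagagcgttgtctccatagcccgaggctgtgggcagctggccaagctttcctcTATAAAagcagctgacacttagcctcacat
S100a4 (chr3:90603520-90603769, plus strand): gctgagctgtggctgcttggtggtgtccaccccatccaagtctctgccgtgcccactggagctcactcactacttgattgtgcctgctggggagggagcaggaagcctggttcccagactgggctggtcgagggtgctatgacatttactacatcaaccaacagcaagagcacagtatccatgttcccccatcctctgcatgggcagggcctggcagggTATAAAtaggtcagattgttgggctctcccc
Lce3a (chr3:92926231-92926480, minus strand): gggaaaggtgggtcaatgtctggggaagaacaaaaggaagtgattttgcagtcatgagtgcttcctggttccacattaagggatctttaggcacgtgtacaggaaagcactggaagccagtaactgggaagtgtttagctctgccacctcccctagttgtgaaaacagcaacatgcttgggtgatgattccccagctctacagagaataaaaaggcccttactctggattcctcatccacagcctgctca
S100a8 and S100a4 have TATAAA 30 and 31 bases before the start and no TGANTCA, and the Lce3a run holds neither. Over windows from 250 bases before to 50 bases after the start, 37 members had at least 1 RefSeq window and 41 windows in all. TGANTCA, which reads as TGANTCA on both strands, was in 15 of the 41 (36.6%) and in 7.81% of all 32851 windows. The 15 genes were 3 that were lower (Crnn, Sprr1a and Sprr1b, of 10 lower members with a window), 3 that did not pass (Ivl, S100a11 and S100a16, of 7), 0 of the 2 higher and 9 of 18 not tested, 5 of these being Sprr2 genes of 1 family, which are not independent. TATAAA, added after seeing the data, was in 46.3% of member windows and 13.6% of all. Searched on both strands, the KLF4-type letters GGGTGNGGC were in 9.76% of member windows and 5.13% of all (4 member windows, 2 of them the identical bases of Sprr2a1 and Sprr2a2), and CACCC in 63.4% and 57.5%. A 10-letter NF-kB motif was in 1 window, that of Pglyrp1 (2.44%, against 1.63% of all). The C/EBP letters TTGCGCAA and the grainyhead letters AACCGGTT were in 0 member windows and in 0.183% and 0.146% of all. A match is a description of letters and not a measured site.

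The S100-fused genes join an S100 domain to long repeats, and in skin and hair they bind keratin filaments. Of 5 in the table, 2 could be tested, 1 higher and 1 lower. Tchh (gene ID 99681), trichohyalin, known from the inner root sheath of hair and from filiform papillae of the tongue, had 0.467, 1.05 and 0.894 CPM with vehicle and 3.35, 3.44 and 3.86 CPM with luteolin. The groups were separated by more than their own ranges, with means of 0.805 ± 0.303 CPM (SD, n = 3) and 3.55 ± 0.271 CPM (SD, n = 3), and the log2 fold change was 2.13 (SE 0.310, 4.38-fold higher, edgeR adjusted p = 0.00105). Of 8 measured markers of hair follicle and meibomian gland, 1 could be tested, the gland gene Cidea, which was lower, and the summed level of the 8 was 4.79 to 7.33 CPM with vehicle and 1.16 to 1.93 CPM with luteolin, of which Cidea made up 3.62 to 5.60 CPM and 0.451 to 1.16 CPM. The hair keratins Krt25, Krt27, Krt28 and Krt71 had 0 to 7 counts per library in both groups. Crnn (gene ID 381457), cornulin, a squamous epithelial protein, had 3.39, 1.4 and 2.03 CPM with vehicle and 0.774, 0.780 and 0.965 CPM with luteolin. Its log2 fold change was -1.43 (SE 0.383, 2.69-fold lower, edgeR adjusted p = 0.015), and the call was lost without luteolin 1 or luteolin 2 (edgeR adjusted p = 0.0543 and 0.0539, within 0.00457 to 0.0543 over all alternatives). Flg, Rptn and Tchhl1 had 0 to 2 counts in every library. Transcripts of Flg, which encodes the precursor of filaggrin, were therefore hardly detected in either group.

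Ivl and Lor encode involucrin and loricrin, the classical envelope proteins; Ivl could be tested and did not pass, and Lor had too few reads to test. Ivl (gene ID 16447) had 11, 11.1 and 11.7 CPM with vehicle and 11.1, 10.3 and 13.7 CPM with luteolin. The groups overlapped, and the log2 fold change was 0.05 with a 95% interval of -0.22 to 0.32 (edgeR adjusted p = 0.765). Lor had 0 or 1 count in every library, and Crct1, a cysteine-rich gene of the complex, had 8, 1 and 16 counts with vehicle and 1, 3 and 8 with luteolin and was not tested. Along chromosome 3 in the RefSeq order, the 11 SPRR genes with fewer reads, Ivl and the 6 LCE genes with more reads follow each other, with Ivl between the families. Of these LCE genes only Lce3a could be tested, and no test was made of this order.

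**Figure D3:**
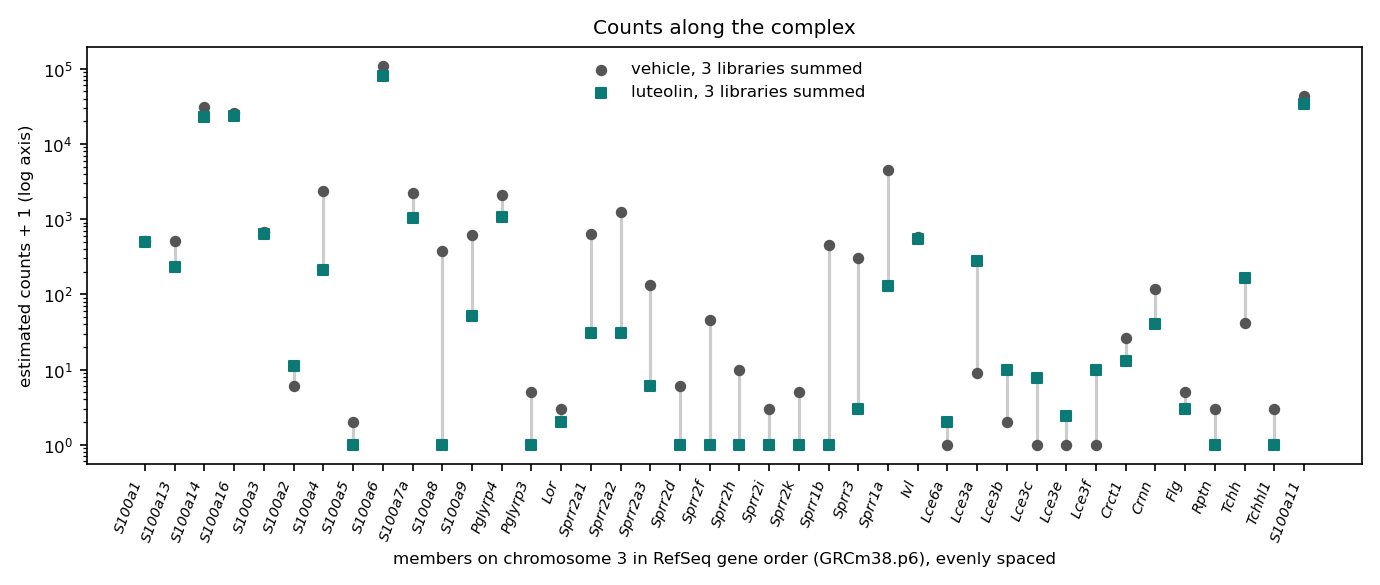
Estimated counts plus 1, summed over the 3 libraries of a group, on a log10 axis for the 40 members on chromosome 3, evenly spaced in RefSeq gene order, with circles for vehicle and squares for luteolin. The luteolin square is below the vehicle circle for all 11 SPRR genes, at the circle for Ivl and above it for the 6 LCE genes that follow. Of these 6, only Lce3a had enough reads to be tested.

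Peptidoglycan recognition proteins bind bacterial cell walls, and Pglyrp3 and Pglyrp4 lie in the complex next to the calgranulins. Pglyrp4 (gene ID 384997) had 33.4, 37.4 and 53.3 CPM with vehicle and 15.2, 23.9 and 29.0 CPM with luteolin. The lowest vehicle library was above the highest luteolin library, and the log2 fold change was -0.87 (SE 0.256, 1.82-fold lower, edgeR adjusted p = 0.022); without vehicle 3 it was -0.66 (edgeR adjusted p = 0.0516, within 0.00164 to 0.0516 over all alternatives). Pglyrp1 (gene ID 21946), which is stored in neutrophil granules and is also made by epithelia, had 79.1, 103 and 105 CPM with vehicle and 60.8, 89.6 and 94.1 CPM with luteolin. The groups overlapped and Pglyrp1 did not pass (log2 fold change -0.23, 95% interval -0.58 to 0.12, edgeR adjusted p = 0.295). Pglyrp2 had 3, 5 and 1 counts with vehicle and Pglyrp3 2, 0 and 2, and both had 0 with luteolin.

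Compared per length, with the deposited TPM, 4 S100A genes made up nearly all RNA of the members. Mean TPM was 7834 with vehicle and 6200 with luteolin for S100a6, 6703 and 5439 for S100a11, 1186 and 928 for S100a14, and 899 and 917 for S100a16. These held the first 4 places in both groups, followed by Pglyrp1 (387 and 321 TPM). The order below them differed: S100a4 was the sixth with vehicle (375 TPM) and Sprr1a the seventh (275 TPM), and with luteolin they were at 32.9 and 8.38 TPM. Lce3a went from 0.983 to 36.4 TPM, while Ivl was at 10.2 and 10.6 TPM. All members together made 1.77%, 1.80% and 1.89% of TPM in the vehicle libraries and 1.34%, 1.47% and 1.42% in the luteolin libraries. Of that sum, the 4 leading S100A genes were 90.8% to 92.3% with vehicle and 95.1% to 96.5% with luteolin, so the large relative changes of SPRR and calgranulin genes concerned a small part of the members' RNA.

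**Figure D4:**
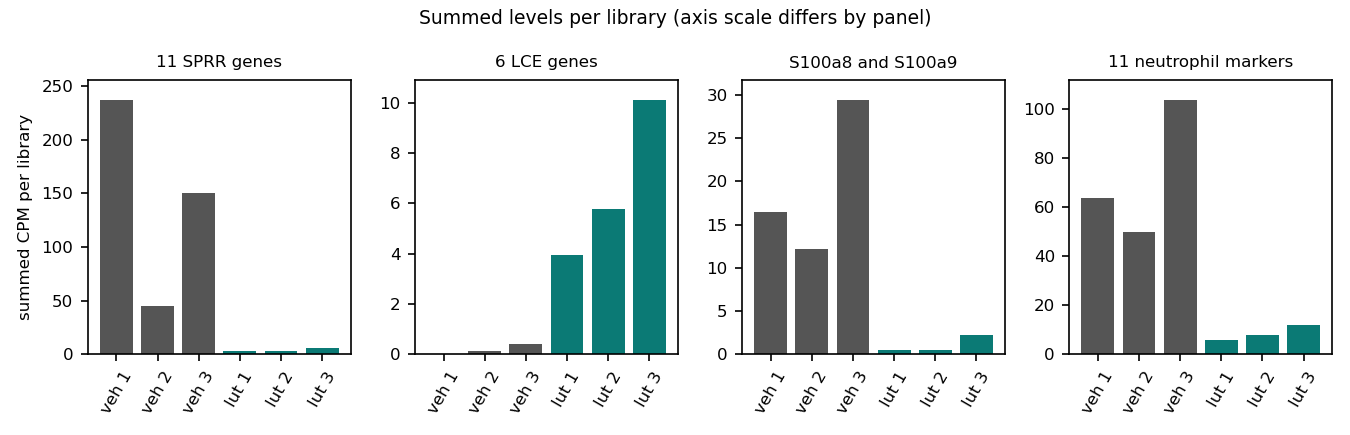
Bars show the summed TMM-scaled CPM of the 11 SPRR genes, the 6 LCE genes, S100a8 with S100a9, and the 11 neutrophil markers in each library (veh, vehicle; lut, luteolin), each panel with its own linear axis from 0. SPRR sums range from 45.4 to 237 CPM with vehicle and from 3.31 to 5.98 CPM with luteolin. The calgranulin and neutrophil panels are both highest in vehicle 3, where Ltf makes up 73.5 CPM of the neutrophil sum and Csf3r is lowest of its group.

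Other genes of cornification did not all follow the SPRR genes. The counts of this and the following lists stand beside 30.4% lower and 28.5% higher over all tested genes. Of 11 listed genes for envelope cross-linking and scaffold, 7 were tested, 2 lower and 4 higher, with a median log2 fold change of 0.29. Evpl, for the scaffold protein envoplakin, was at 506, 568 and 610 CPM with vehicle and 1187, 1110.1 and 1221 CPM with luteolin (log2 fold change 1.06, edgeR adjusted p = 0.000112), and its partner Ppl, for periplakin, rose by 0.76 on the log2 scale (edgeR adjusted p = 0.000514). Cst6, a cysteine protease inhibitor of the cornification pathway, rose by 0.99 (edgeR adjusted p = 0.000619). Cdsn, for the adhesion protein corneodesmosin, was at 13, 14.5 and 22.1 CPM with vehicle and 2.06, 1.82 and 2.25 CPM with luteolin, 8.05-fold lower (edgeR adjusted p = 0.00012). The scaffold genes and Cdsn thus moved in opposite directions with no overlap of the groups, and without vehicle 2 the list had 4 lower members and a median of -0.02.

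Among 6 suprabasal keratins 4 were tested, with 1 lower, 2 higher and a median of 0.09. Krt78, a type II keratin, was at 24.5, 30.1 and 29.6 CPM with vehicle and 150.3, 118 and 124 CPM with luteolin, 4.66-fold higher (edgeR adjusted p = 4.15e-05), and Krt80 was 1.90-fold higher (edgeR adjusted p = 0.000365). Krt10, a keratin of the suprabasal epidermis, was at 22.0, 8.49 and 16.3 CPM with vehicle and 6.45, 7.34 and 6.82 CPM with luteolin, 2.27-fold lower (edgeR adjusted p = 0.0152), which no longer passed without luteolin 1 (edgeR adjusted p = 0.0548, within 0.000263 to 0.0548 over all alternatives). Its partner Krt1 was at 18.3, 4.21 and 12.4 CPM against 6.77, 6.37 and 7.66 CPM and did not pass (edgeR adjusted p = 0.195), but passed without vehicle 2 (edgeR adjusted p = 0.00186, the lowest of its alternatives, the highest being 0.627). Krt1 and Krt10 were lowest among the vehicle libraries in vehicle 2, as were Sprr1a, Sprr1b and Sprr2a2.

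For filaggrin processing and desquamation 9 of 10 listed genes were in the table and 7 were tested, with 4 lower, 1 higher and a median of -0.65. Asprv1, the protease that cleaves profilaggrin, was at 1358 to 1810.4 CPM with vehicle and 3444 to 3828 CPM with luteolin, 2.28-fold higher (edgeR adjusted p = 0.000201), in tissue in which Flg itself had 0 to 2 counts. Spink5, an inhibitor of epidermal kallikreins, was at 156, 54.0 and 137 CPM with vehicle and 19.3, 20.1 and 16.5 CPM with luteolin, 6.20-fold lower (edgeR adjusted p = 0.000962). Klk8, one of those kallikreins, was 6.01-fold lower (edgeR adjusted p = 0.000465), and Padi3, which citrullinates filaggrin and trichohyalin, 16.1-fold lower (edgeR adjusted p = 0.00141), or 25.7-fold without luteolin 3. Padi3 passed the filter only through its vehicle libraries.

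Of 25 listed regulators of epidermal differentiation, 24 were tested, and the median was 0.36. Of these, 15 were higher, 5 were lower and 4 did not pass, against 28.5% higher and 30.4% lower of all tested genes. Corneal epithelial markers, 8 of 10 higher, had a median of 0.64, and their part in the regulator values was not tested. Grhl1, a grainyhead factor, was at 97.6, 103 and 105 CPM with vehicle and 235, 228 and 209 CPM with luteolin (log2 fold change 1.14, edgeR adjusted p = 4.76e-05). Prdm1 was 2.47-fold higher (edgeR adjusted p = 0.000528), Tfap2a 1.72-fold (edgeR adjusted p = 0.000248) and Zfp750 1.65-fold (edgeR adjusted p = 0.000237). Klf4, a barrier factor, rose by 0.75 on the log2 scale and Ovol1 by 1.21. Among the 5 lower was the AP-1 subunit Fosl1, at 0.993, 4.33 and 6.08 CPM with vehicle and 0 in every luteolin library, at least 58.5-fold lower (edgeR adjusted p = 0.00474), with bounds of 38.9 to 80.4 when any 1 library was left out, the smallest without luteolin 3 (38.9), luteolin 1 (38.9) or luteolin 2 (39.1). Fosl1 passed the filter only through its vehicle libraries and had to be lower in order to be tested. The AP-1 subunit Jun fell by 0.39 on the log2 scale (edgeR adjusted p = 0.00381), and Fos was at 55.1 to 119 CPM with vehicle and 58.8 to 88.0 CPM with luteolin and did not pass. Klf4, Ovol1, Fosl1, Jun and Fos were named after their values were seen.

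Of 10 receptors and annexin partners of S100 proteins, 10 were tested, with 2 lower, 4 higher and a median of -0.03. Over all tested genes 30.4% were lower and 28.5% higher. Anxa1, whose product binds S100A11, was at 2007, 1990.2 and 2414 CPM with vehicle and 1213, 1185 and 1245 CPM with luteolin (log2 fold change -0.82, edgeR adjusted p = 0.000316). Ahnak, a scaffold of the S100A10 complex, was 1.54-fold higher (edgeR adjusted p = 0.000441) and Anxa11, which binds S100A6, 1.46-fold higher (edgeR adjusted p = 0.00175). Cd36, a scavenger receptor that takes up fatty acids bound by calprotectin, was at 9.23, 23.3 and 8.52 CPM with vehicle and 0.903, 0.780 and 0.901 CPM with luteolin, 15.8-fold lower (edgeR adjusted p = 0.000474), or 10.2-fold without vehicle 2. Ager and Tlr4, receptors for calgranulins, had log2 fold changes of -0.16 and -0.15 and did not pass. S100b, an S100 gene outside the complex, was 2.26-fold lower (edgeR adjusted p = 0.032), which no longer passed without vehicle 2, luteolin 1 or luteolin 2 (edgeR adjusted p = 0.0944, 0.101 and 0.0927, within 0.0134 to 0.101 over all alternatives).

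Of 15 listed symbols of cytokines known to induce SPRR, S100A or LCE genes in keratinocytes, 11 were in the table and 7 could be tested, with 5 lower, 0 higher and a median of -1.45. The 15 include both the older and the newer symbols of the interleukin-36 alpha, beta and gamma genes. The table holds these genes as Il1f6, Il1f8 and Il1f9. Il1b and Osm passed the filter only through their vehicle libraries, so 2 of the 5 had to be lower in order to be tested. Il1b was at 13.9, 39.2 and 60.4 CPM with vehicle and 0.580, 0.260 and 0.322 CPM with luteolin, 95.7-fold lower (edgeR adjusted p = 0.000337). Oncostatin M (Osm) had 1 count over the luteolin group, a ratio of 77.4 (exact 95% interval 13.5 to 3093), with ratios of 51.5 to 98.7 when any 1 library but luteolin 2 was left out, and at least 17.3-fold lower without luteolin 2, the library with that count. Il1f9, which encodes interleukin-36 gamma, was 2.73-fold lower (edgeR adjusted p = 0.0149), and Il1f8, for interleukin-36 beta, 2.68-fold lower (edgeR adjusted p = 0.017), which no longer passed without luteolin 1 or luteolin 3 (edgeR adjusted p = 0.0614 and 0.0593, within 0.00522 to 0.0614 over all alternatives). Leukocytes make several of these cytokines, and the neutrophil and macrophage marker sums given above were also lower with luteolin. The part of leukocytes in these values, and of the cytokines in the member results, was not tested.

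**Figure D5:**
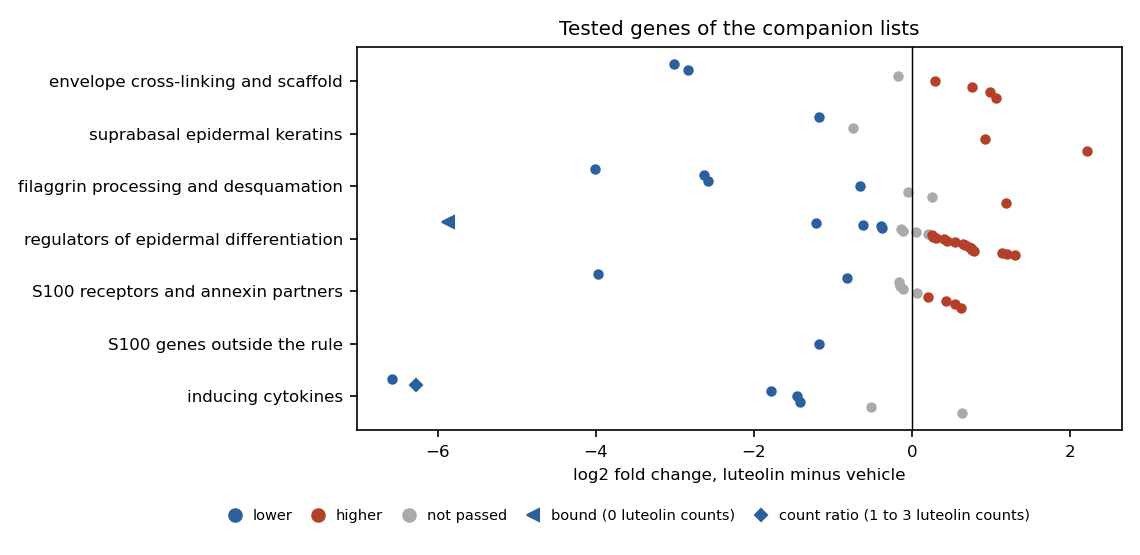
Log2 fold change (luteolin minus vehicle, horizontal axis) of each tested gene in the companion lists, one row of points per list, coloured by lower, higher or not passed; the triangle (Fosl1) is a bound and the diamond (Osm) a count ratio. Of the regulators 15 are drawn as higher and 5 as lower, and of the inducing cytokines 5 are drawn as lower, Il1b farthest left.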

How the data were processed

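Whole corneas of mice were profiled by RNA sequencing (Trizol extraction and Illumina TruSeq libraries, per the labels' protocols), 3 vehicle and 3 luteolin libraries grouped by their titles. Per the submitters' processing notes, Bowtie2 2.2.5, RSEM 1.2.12 and build mm9 were used; what each did, the annotation and the strand setting were not given in the sources used here. The authors deposited estimated counts for 17794 genes, of which 10.3% to 10.8% of the values per library were not whole (tolerance 0.001), which happens where similar genes share reads. The normalized read counts deposited beside them are a signal scaled by 1 factor per library and were not tested. Deposited FPKM values were used for alternatives, and the deposited TPM values to compare genes with each other. A further 8 columns of group averages were not used.

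Counts were rounded and tested for all genes with edgeR 4.0.16 in R 4.3.3 (filterByExpr with a minimum count of 10 and a minimum total of 15, which kept 13838 genes, TMM factors, quasi-likelihood test, Benjamini-Hochberg adjustment over all tested genes, threshold 0.05). Log2 fold changes are luteolin minus vehicle, and SE is the absolute change divided by the square root of F. Their 95% intervals were drawn from the SE with a normal distribution, and are narrower than the quasi-likelihood test would give. The common biological coefficient of variation was 13.8%. A gene with 0 luteolin counts was compared with 3 counts in the whole group (0.0646 CPM), and 1 to 3 counts were given with exact conditional 95% intervals; both cover counting error only. Replicates exceeded counting noise: chi-square over its degrees of freedom was 6.46 to 32.0 for pairs of the same group. The code was tested on simulated data.

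The members, lists and motifs were chosen with earlier results of these data known. Named were, per family, tested members that passed (at most 6, by p) and up to 3 that did not (by level), untested members with 0 luteolin and over 30 vehicle counts, the 4 companion genes per list with the smallest p and the 2 markers per list with the highest level. Sprr3, Sprr2a3, Crct1, the members given by counts, and Krt1 beside Krt10, Ager, Tlr4 and the other companion or marker genes outside this rule were named after their values were seen. Alternatives were DESeq2 1.42.0, limma 3.58.1 on log2 of FPKM plus 1 or plus 0.1, other scalings and filters, robust dispersion, a replicate block, each library left out, and the summed Sprr2a genes, added after seeing the data. Promoter windows and gene order came from RefSeq tables of build GRCm38.p6, which matched 37 and 42 of the 42 members; no mm9 coordinates are given.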

Additional observations from a re-analysis of the deposited data

How the results depend on the processing

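Of the 21 tested members, 12 were lower and 2 higher; over the alternatives 11 to 14 of these 21 were lower, and 2 higher. Some alternatives tested other members as well. Over all members each could test, 13 were lower in 8 settings that kept all libraries, 16 of 42 without a filter (which also called Lce3f higher), 16 of 26 by DESeq2 (which added Sprr2a3, Sprr2f and Sprr3), and 12 to 17 when 1 library was left out, with 17 of 24 without vehicle 2. Over all genes, 51.6% of calls were lower under TMM scaling, 63.6% when scaled by library sizes only, 61.9% with upper quartile factors and 65.1% and 65.3% by limma (pseudocounts 1 and 0.1), settings that moved the median of all genes from -0.02 to -0.13, -0.11, -0.12 and -0.14.

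Genes that did not pass changed sign with this shift: in the order upper quartile, library sizes, limma with 1 and with 0.1, S100a1 was at -0.016, -0.035, -0.10 and -0.10, S100a16 at -0.056, -0.075, -0.10 and -0.10, S100a3 at -0.085, -0.10, -0.14 and -0.14, Ivl at -0.045, -0.063, -0.072 and -0.082, and the muscle marker Tnni2 at -0.10, -0.11, -0.15 and -0.16. Tnni2 was at -0.0076 with the CPM filter and -0.0026 with the replicate block. With 1 library left out the ranges were -0.039 to 0.18 for S100a1, -0.0097 to 0.080 for S100a16, -0.14 to 0.13 for S100a3, -0.081 to 0.12 for Ivl, -0.15 to 0.092 for Tnni2 and -1.01 to 0.087 for Dcn. Medians also changed sign: suprabasal keratins were at -0.0064 with upper quartile factors, -0.027 with library sizes, -0.25 without a filter, -0.23 by DESeq2 and -0.092 to 0.27 with 1 library left out, envelope cross-linking at -0.021 to 0.32 and S100 receptors and annexins at -0.054 to 0.064 with 1 library left out. The cause was not tested.

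Libraries share replicate numbers across the groups, but same-numbered libraries did not deviate together (correlations -0.15, 0.03 and 0.01), and not every library correlated best with its own number. With a replicate block 13 members were lower and 2 higher, against 4144 and 3790 of all genes; Pglyrp1 then passed (log2 fold change -0.25, edgeR adjusted p = 0.0278).

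Depth limits the members with few reads: 21 of 42 were not tested, and for 16 of them at most 10 counts were found.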

Other observations

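The calgranulins changed in unequal proportion. Vehicle libraries held 48.4, 56.0 and 73.0 S100a8 counts for every 100 S100a9 counts, whereas the luteolin libraries held 0 S100a8 counts beside 8, 8 and 35 S100a9 counts. Over the luteolin group the floor of 3 counts is 5.88 S100a8 counts per 100 of the 51 S100a9 counts, below every vehicle library. In mouse neutrophils both genes are abundant and are transcribed together, and the ratio was not tested as a result.

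Within the vehicle group, vehicle 2 was the lowest library for several genes of keratinizing epithelium outside the complex. Spink5 was at 156, 54.0 and 137 CPM in vehicle 1, 2 and 3, Krt1 at 18.3, 4.21 and 12.4 CPM, Krt10 at 22.0, 8.49 and 16.3 CPM, and Cnfn, for an envelope protein called cornifelin, at 6.95, 2.46 and 8.70 CPM. The summed SPRR level followed the same order of low and high libraries apart from Cnfn, with 45.4 CPM in vehicle 2. Of 10 corneal epithelial markers, 4 were also lowest in vehicle 2 (Krt5, Krt14, Pax6 and Cdh1, with Krt14 at 6540, 3223 and 5865 CPM), and the other 6 were lowest in vehicle 1. These genes were chosen after their values were seen.

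Skeletal muscle markers varied between libraries in both groups, at 126, 211 and 15.1 CPM in sum with vehicle and 18.0, 17.3 and 92.2 CPM with luteolin, and 0 of 10 tested passed. Of 6 Schwann cell markers 3 were lower and 1, Mbp, was higher.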
